A study of Drosophila melanogaster with 6 samples.

Results

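Neuropeptide and peptide hormone precursor genes were examined in heads of bang-sensitive flies with altered glia and of control flies. A bang-sensitive fly seizes after a mechanical shock. The genes were taken from a list of 46 precursor symbols, and a gene counted as measured where the array annotation gave a row exactly 1 of those symbols. Of the 46, 37 were measured, each by 1 row, out of 13346 genes named on the array. The other 9, AstA, Tk, Hug, Ilp1, Ilp3, Ilp4, Ilp6, Pburs and Dsk, were not analysed, because the annotation names no row for them.

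The pool group comprised 3 arrays hybridised with an equal mixture of RNA from 7 lines, all crossed to repo-GAL4, which drives expression in most glia. In 5 of the lines RNA interference was directed against nrv2, ATPalpha, comt, SesB or COX7A, and the other 2 carried UAS-Dube3a or the huntingtin transgene UAS-htt.12Q.FL. The control group comprised 3 arrays of flies with the same driver and an empty TRiP vector for RNA interference. RNA came from 15 to 25 whole heads per genotype, taken at an age of about 3 to 5 days from flies kept at 25 °C, although the labels name the tissue brain. Because the 7 lines were mixed, a pool value is an average over them, and no value can be assigned to 1 line. The labels do not state whether a group's 3 arrays hold RNA of separate cultures or preparations, so each p-value rests on a spread that may be technical.

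Neuropeptides and peptide hormones are cut from larger precursors, packed into dense-core vesicles and released from neurons, from neuroendocrine cells and from endocrine cells of the gut and fat body. Most act on G protein-coupled receptors, whereas the insulin-like peptides act on a receptor tyrosine kinase. In the fly they set feeding, energy stores, water balance, sleep and daily rhythm, and the sequence of moulting. Many are made by small numbers of cells, so that the RNA of a whole head holds the product of a few neurons beside that of much larger tissues. In whole-head RNA, fewer cells of a type and less RNA per cell cannot be told apart.

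Values are signals on a log2 scale, as deposited, and differences are pool minus control. Each difference was tested with limma over all 16322 rows, and passed where the Benjamini-Hochberg adjusted p was under 0.05. Array medians over all rows were 5.59 to 5.63 in the pool and 5.53 to 5.61 in the control, and the medians over the 37 precursor genes were 7.32 to 7.37 in the pool and 7.34 to 7.36 in the control. Correlations across rows were 0.9967 to 0.9978 between arrays of 1 group and 0.9952 to 0.9960 between groups. Of 9 measured neuronal genes 0 passed the test (0 also at an unadjusted p under 0.05), and their summed signal was 13.26 to 13.32 log2 units in the pool and 13.22 to 13.29 in the control.

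Of the 37 precursor genes 4 passed, CNMa and NPF lower and CCHa2 and Nplp3 higher in the pool. That is 10.8% of the genes, against 2.9% of all rows. Higher and lower each made up 5.41% of the genes, against 1.65% of all rows higher and 1.24% lower. The largest difference was in CNMa, at 0.528 times its control signal, and the next in CCHa2, at 1.51 times. A difference of at least 0.25 in absolute log2 was found in 6 of the 37 genes (16.2%), against 6.32% of all rows. The remaining 33 genes did not pass, and in 32 of them the 95% interval of the log2 difference lay between -0.5 and 0.5. The precursor genes read brighter than the array as a whole, with a median level of 7.35 against 5.59 over all rows. Their median standard error was 0.061, against 0.068. Without the dimmest 25% of rows, 557 of 12241 rows passed, with 2 of the 30 precursor genes left higher and 2 lower. Since the precursor genes were listed with results of these data known, the shares are a description and were not tested.

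**Figure D1:**
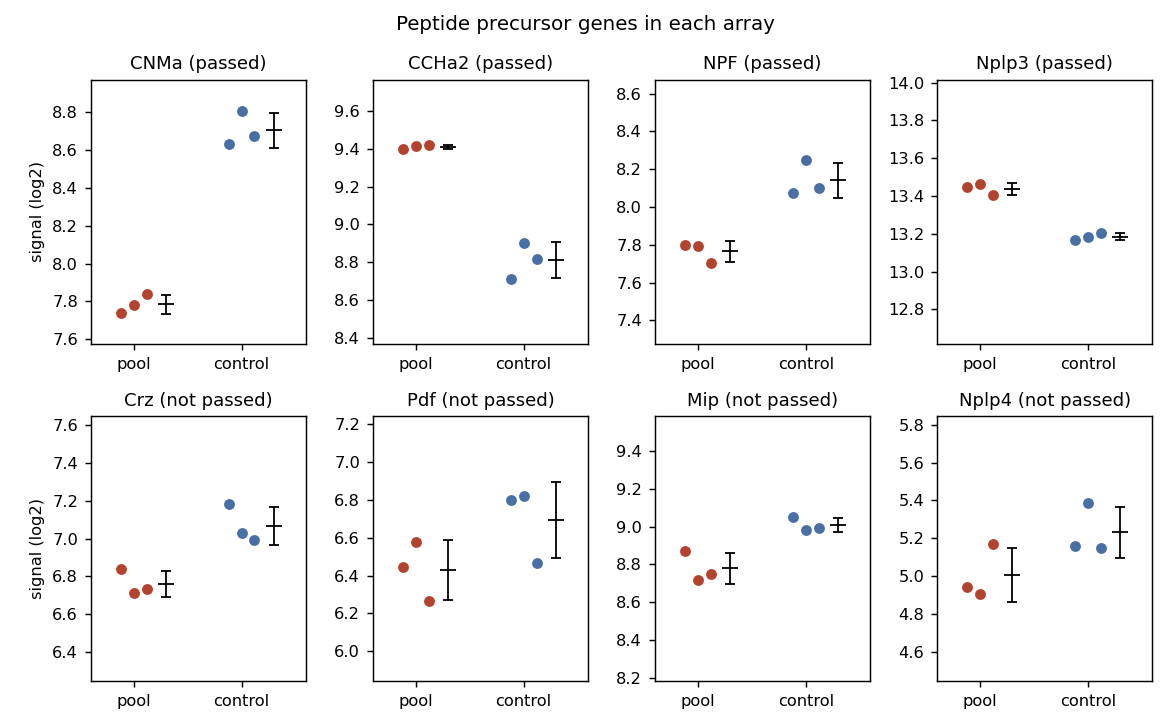
Log2 signal of 8 precursor genes in each array. Points are arrays (pool left, control right), bars are mean ± SD over 3 arrays, and every panel spans the same 1.4 log2 units; CNMa, CCHa2, NPF and Nplp3 passed the test, while Crz, Pdf, Mip and Nplp4 are the genes of largest difference that did not, and the groups overlap in Pdf and Nplp4.

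The peptides grouped here under feeding, gut and fat held 3 of the 4 genes that passed, out of 10 measured, beside 2.9% of all rows. Some of these peptides have other roles too, so the count depends on the grouping and was not tested. CNMa encodes CNMamide, a peptide made in the fly by enterocytes of the gut and by clock neurons of the brain. It read 7.74, 7.78 and 7.84 in the pool arrays, against 8.63, 8.81 and 8.68 in the control arrays. Every pool array lay below every control array, by a gap far wider than the spread within either group. The difference was -0.92 with a standard error of 0.0636, or 0.528 times the control signal (limma adjusted p = 0.000328). Each fit that dropped 1 array also passed it, with an adjusted p of at most 0.00363. The CNMamide receptor gene CNMaR was not analysed here.

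CCHa2 encodes the peptide CCHamide-2, which in the fly is made by gut and fat body and stimulates the insulin-producing cells of the brain. It read 9.40, 9.41 and 9.42 in the pool arrays, against 8.71, 8.90 and 8.82 in the control arrays. The pool arrays were nearly identical, with an SD of 0.01, and all lay above the control arrays, whose SD was 0.10. The difference was 0.60 with a standard error of 0.0612 (limma adjusted p = 0.00236), and each fit that dropped 1 array passed it too, at 0.0168 or less. Its receptor gene CCHa2-R averaged 4.80 ± 0.13 in the pool and 4.68 ± 0.30 in the control (SD, n = 3 each) and did not pass (limma adjusted p = 0.767). CCHa1, whose product is the related peptide CCHamide-1, stood at -0.03 with a 95% interval of -0.17 to 0.11.

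NPF encodes neuropeptide F, a feeding and arousal peptide of brain and midgut. It read 7.80, 7.79 and 7.70 in the pool arrays, against 8.07, 8.25 and 8.10 in the control arrays, and the groups did not overlap. The difference was -0.38 with a standard error of 0.0644 (limma adjusted p = 0.0232). Dropping control replicate 1 kept the call, and dropping any other array ended it (adjusted p at most 0.0947). The receptor gene NPFR averaged 4.59 ± 0.12 in the pool and 4.61 ± 0.03 in the control (SD, n = 3 each; limma adjusted p = 0.916). The gene of the other peptide of that name, sNPF, read 10.88, 10.80 and 10.94 in the pool arrays and 10.84, 10.99 and 11.01 in the control arrays, which overlap, and its difference was -0.07 (95% interval -0.23 to 0.08).

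The other genes of this group did not pass. Mip, the precursor of the myoinhibitory peptides that act in sleep and satiety, read 8.87, 8.72 and 8.75 in the pool arrays and 9.05, 8.98 and 8.99 in the control arrays. All pool arrays were below all control arrays, at a difference of -0.23 (limma adjusted p = 0.108). AstC, an allatostatin precursor, and the peptide genes AstCC, RYa and Trissin stood between -0.08 and 0.04. Over the 10 measured genes of feeding, gut and fat, 8 differences were negative and the median was -0.05.

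Markers of other tissues of the head and body differed between the same arrays. Beside the counts below, 1.65% of all rows passed higher and 1.24% lower. Of 9 measured fat body markers 2 were higher, Lsp2 (log2 difference 1.33) and Obp99b (0.55), and 0 lower. The summed fat body signal was 15.56 to 15.58 log2 units in the pool and 15.59 to 15.61 in the control. That sum gives most weight to the brightest of these markers, Yp1, Yp2 and Yp3, at -0.11, -0.11 and -0.19, which did not pass. Of 10 midgut markers 4 were higher and 0 lower, with a summed signal of 10.10 to 10.20 in the pool and 9.78 to 9.86 in the control. Of these markers Jon99Ci, which was higher, and Jon65Ai, Mal-A1, LysB, cad and Npc2f, which did not pass, averaged 4.02 to 4.92. Genes specific to ovary, testis, accessory gland or larval glue averaged 3.60 to 5.11. Of 7 muscle markers 4 were higher and 0 lower, with 13.27 to 13.32 in the pool and 12.97 to 13.02 in the control. Of 7 glial markers 1 was lower, wrapper, with 13.24 to 13.29 in the pool and 13.24 to 13.32 in the control. The groups did not overlap in 5 of the 7 glial markers (21.5% of all rows), and 5 had an unadjusted p under 0.05 (14.8% of all rows). Glial differences were negative in 5 and positive in 2. An array signal has no zero, so no marker could be called absent. CCHa2, a gene of gut and fat body, was higher in the arrays where summed midgut and muscle signal was higher. In those arrays Lsp2 and Obp99b were higher too, while the summed fat body signal was slightly lower. Of the 9 fat body markers 6 had negative differences. CNMa and NPF, which the gut also makes in the fly, were lower in the pool arrays. The RNA came from whole heads, and whether it held any RNA of the gut was not measured. The part of these tissues in the 3 differences was not tested.

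**Figure D2:**
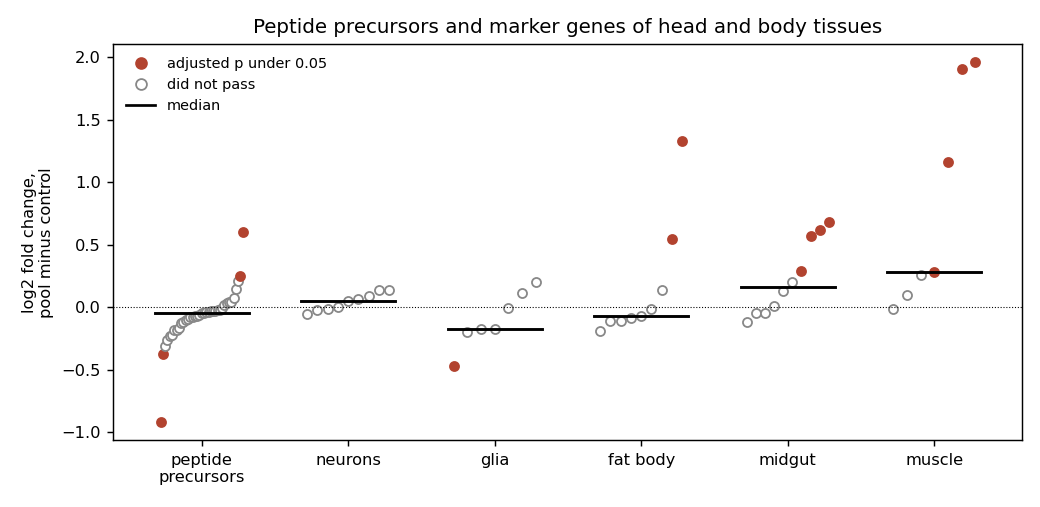
Log2 difference, pool minus control, of the 37 precursor genes and of marker genes of neurons, glia, fat body, midgut and muscle. Each point is a gene, filled where it passed the test, and the line is the median of the group: -0.05 in the precursor genes, 0.05 in neurons, -0.17 in glia, -0.07 in fat body, 0.17 in midgut and 0.28 in muscle.

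Nplp3 was the fourth gene that passed. The Nplp genes encode peptide precursors named from peptides detected in fly nervous tissue, with no receptor assigned here. Nplp3 read 13.45, 13.46 and 13.40 in the pool arrays, against 13.17, 13.18 and 13.20 in the control arrays. The groups stood clearly apart, but the difference was small, 0.25 with a standard error of 0.0487 (limma adjusted p = 0.0367). Nplp3 no longer passed in any fit that dropped 1 array (adjusted p 0.0820 to 0.134), nor after quantile normalization (0.0590) or median centring of the arrays (0.0992). Nplp2 read 13.29, 13.37 and 13.36 in the pool arrays and 13.41, 13.40 and 13.33 in the control arrays, with a difference of -0.04 (95% interval -0.16 to 0.08). Nplp4 read 4.94, 4.90 and 5.17 in the pool arrays and 5.16, 5.39 and 5.15 in the control arrays, where the groups overlap (-0.23, limma adjusted p = 0.318). Nplp1 stood at -0.12 (95% interval -0.35 to 0.10), and between -0.19 without pool replicate 1 and -0.04 without control replicate 2.

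Among the genes grouped here under clock, arousal and stress 0 of 7 passed, and 6 of the 7 differences were negative, with a median of -0.13. The group also took in Proc, Ms and FMRFa, whose peptides act on muscle, and SIFa, of feeding and courtship. At an unadjusted p under 0.05 there were 3 genes (Crz, Proc and Ms), beside 14.8% of all rows. With trended robust settings 2 passed, Crz and Proc, where 476 of all 16322 rows passed higher and 385 lower. With the ordinary t statistic 0 passed. The gene nearest the threshold was Crz, which encodes corazonin, a neurosecretory peptide of stress and metabolism. It read 6.84, 6.71 and 6.74 in the pool arrays, against 7.18, 7.03 and 6.99 in the control arrays, without overlap. The difference was -0.31 with a standard error of 0.0686 (limma adjusted p = 0.0631), and Crz did pass once the arrays were quantile normalized (0.0428) or centred on their medians (0.0333).

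Pdf, the pigment-dispersing factor gene through which clock neurons set daily rhythm, read 6.44, 6.58 and 6.26 in the pool arrays and 6.80, 6.82 and 6.47 in the control arrays. Control replicate 3 lay inside the range of the pool, and the difference of -0.27 had a 95% interval of -0.53 to 0.00 (limma adjusted p = 0.339). Proc, the gene of the muscle-contracting peptide proctolin, averaged 9.36 ± 0.03 in the pool and 9.52 ± 0.02 in the control (SD, n = 3 each). Ms, the gene of myosuppressin, which quiets gut and heart muscle, averaged 10.43 ± 0.01 in the pool and 10.56 ± 0.05 in the control (SD, n = 3 each). The arrays of the groups did not overlap in either gene, and neither passed (limma adjusted p = 0.143 and 0.303). SIFa, a neuropeptide gene of feeding and courtship, showed the smallest difference of all 37 genes, -0.01, with 7.32, 7.35 and 7.37 in the pool arrays and 7.34, 7.36 and 7.36 in the control arrays. FMRFa, whose peptides stimulate muscle, stood at 0.21 (limma adjusted p = 0.397). Its control replicate 3 read 5.86, beside 6.27 and 6.18 in the other control arrays, and without it the difference was 0.09.

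**Figure D3:**
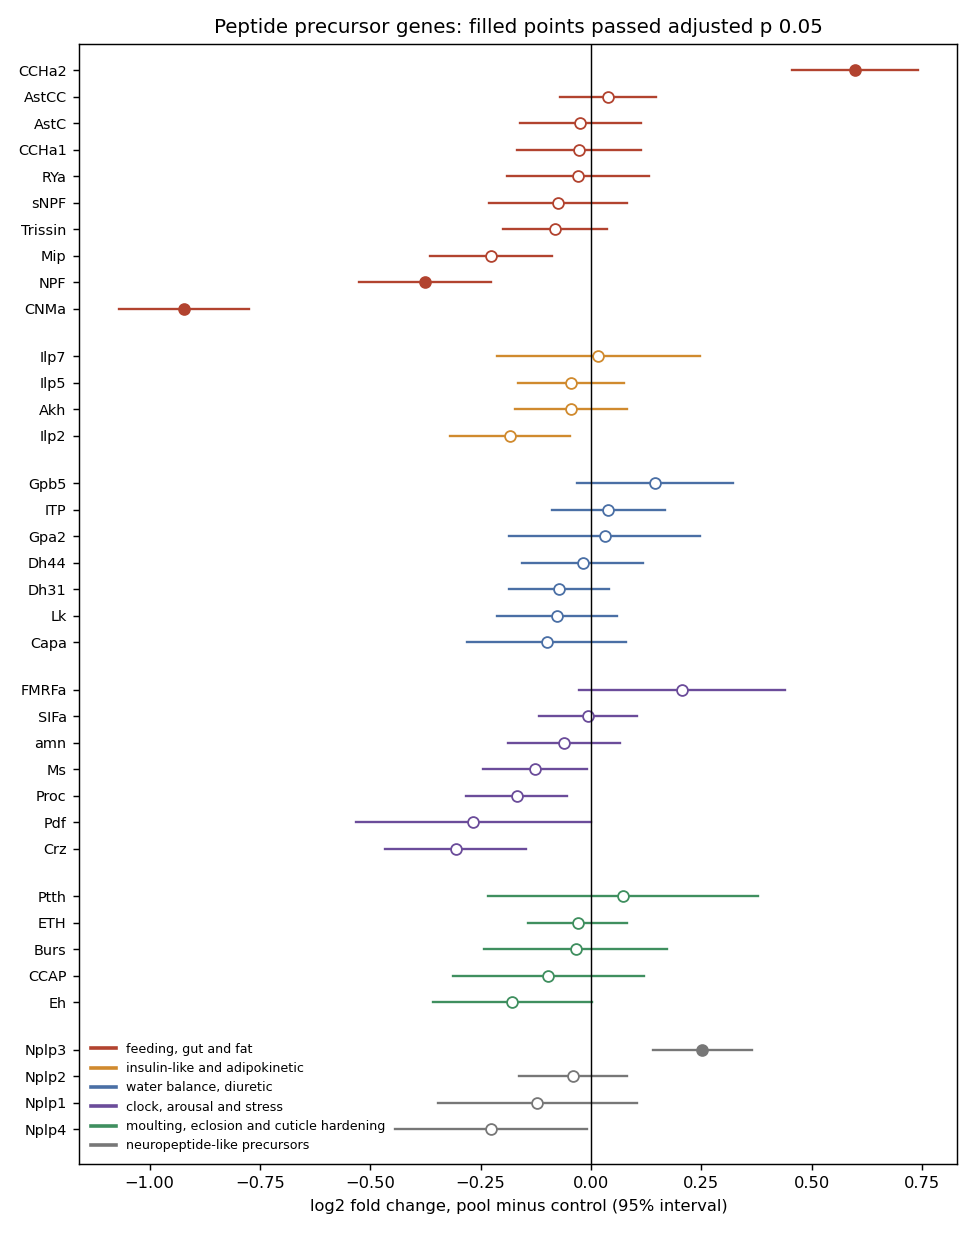
Log2 difference, pool minus control, of each of the 37 measured precursor genes with its 95% interval from limma, in the role groups used in the text. Filled points passed the test (CCHa2, Nplp3, NPF and CNMa); 28 of the 37 points lie below 0.

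The hormones of energy balance did not pass in any of 4 measured genes, in limma or with the ordinary t statistic. Of the 4 genes 1 had an unadjusted p under 0.05, beside 14.8% of all rows. Ilp2 and Ilp5 encode insulin-like peptides of the brain's insulin-producing cells. Ilp2 read 8.79, 8.80 and 8.78 in the pool arrays, against 9.07, 8.94 and 8.91 in the control arrays, so that all pool arrays were lower, at a difference of -0.18 (95% interval -0.32 to -0.05, limma adjusted p = 0.182). Ilp5 read 8.22, 8.20 and 8.23 in the pool arrays and 8.22, 8.32 and 8.24 in the control arrays, which overlap, at -0.04 (95% interval -0.16 to 0.08). Akh, the gene of adipokinetic hormone, which mobilises stored fat and sugar, read 10.93, 10.99 and 10.95 in the pool arrays and 11.04, 11.03 and 10.93 in the control arrays, at -0.05 (95% interval -0.17 to 0.08). Beside the higher CCHa2, whose product acts on these cells in the fly, neither insulin gene passed.

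Of 11 measured genes of the insulin and Akh pathway 1 passed, beside 2.9% of all rows. The groups did not overlap in 6 of the 11 (21.5% of all rows), and 5 had an unadjusted p under 0.05 (14.8% of all rows). The differences were positive in 9 of the 11, the exceptions being the Akh receptor gene AkhR and Sdr, whose product binds insulin-like peptides, and the median was 0.09. The gene that passed was tobi, a glucosidase gene known in the fly as a target of brain insulin and Akh. It read 8.98, 8.92 and 8.95 in the pool arrays and 8.63, 8.68 and 8.69 in the control arrays, a difference of 0.28 (limma adjusted p = 0.0246). No fit that dropped 1 array passed tobi (adjusted p at most 0.103), nor did the fit on median-centred arrays (0.0637).

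The peptides of water balance showed little difference in any gene. Of 7 measured genes 0 passed in limma, 0 with the ordinary t statistic and 0 at an unadjusted p under 0.05, and the differences ran from -0.10 in Capa to 0.15 in Gpb5. Dh31 and Dh44 encode diuretic hormones. Dh44 averaged 8.13 ± 0.06 in the pool and 8.14 ± 0.06 in the control (SD, n = 3 each), and Dh31 9.01 ± 0.01 in the pool and 9.09 ± 0.04 in the control (SD, n = 3 each), with 95% intervals of -0.16 to 0.12 and -0.19 to 0.04. ITP, an antidiuretic hormone gene, stood at 0.04, and Lk, the leucokinin gene, at -0.08.

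The peptides of moulting, eclosion and cuticle hardening, whose main work is done before or shortly after the adult emerges, also held 0 genes that passed among 5 measured, by limma, by the ordinary t statistic or at an unadjusted p under 0.05. Eh, the eclosion hormone gene, stood at -0.18 (limma adjusted p = 0.342), and CCAP, Burs, ETH and Ptth lay between -0.10 and 0.07. Except for Eh these genes read no more than 4.61 on average. That is within the range of 29 genes specific to ovary, testis, accessory gland or larval glue, organs that a head lacks, which averaged 3.60 to 5.11. In all, 10 of the 37 precursor genes read within that range, and they were AstCC, Ilp7, ETH, CCAP, Burs, amn, RYa, Gpa2, Gpb5 and Ptth. Their differences ran from -0.10 to 0.15, and the arrays could not show a change of a transcript that gives no signal above background. Probes differ in brightness, so this range is a guide and not a detection limit.

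Across the 37 genes, differences were more often negative than in the array as a whole. The count was 28 of 37, or 75.7%, against 50.2% of all rows. The median was -0.05, against -0.00 over all rows, and the median absolute difference was 0.08, against 0.07. The groups did not overlap in 13 genes (35.1%), against 21.5% of all rows. In 9 genes (24.3%) all pool arrays were below all control arrays, against 10% of all rows, and in 4 genes (10.8%) all were above, against 11.4%. At an unadjusted p under 0.05 there were 10 genes (27%), against 14.8% of all rows. With 1 array left out 26 to 30 of the 37 were negative, against 48.9% to 51.9% of all rows. Centring arrays on their medians, which moves every difference by about -0.03, gave 30 of 37, against 62.7% of all rows. The neuronal markers had a median of 0.05, with 4 of 9 negative. Whether the precursor genes as a group stand apart from other genes was not tested.

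Receptor genes of the same peptides passed in 2 of 25 measured cases, both lower, beside 2.9% of all rows. Without overlap of the groups there were 9 of the 25 (21.5% of all rows), and 7 had an unadjusted p under 0.05 (14.8% of all rows). SPR, the sex peptide receptor gene, whose product also responds to the Mip peptides, read 7.53, 7.59 and 7.55 in the pool arrays and 8.09, 7.97 and 8.04 in the control arrays. The groups lay well apart, and the difference of -0.48 with a standard error of 0.0539 (limma adjusted p = 0.00387) also passed in each fit that dropped 1 array (adjusted p at most 0.0242). Its ligand gene Mip lay lower without overlap but did not pass. Dh44-R2, a receptor gene of the diuretic hormone Dh44, read 7.85, 7.94 and 7.91 in the pool arrays and 8.19, 8.16 and 8.21 in the control arrays, a difference of -0.29 (limma adjusted p = 0.0276), and did not pass in any fit that dropped 1 array (adjusted p at most 0.108). The median over the 25 receptor genes was 0.02. Among 20 pairs with ligand and receptor both measured, the ligand alone passed in 2, the receptor alone in 2 and both in 0. In the pairs where the ligand alone passed, the receptor genes CCHa2-R and NPFR averaged 4.74 and 4.60 over all arrays. That is within the 3.60 to 5.11 of the genes specific to organs that a head lacks, where a change may not show.

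Of 17 genes that make and release the peptides 2 had an unadjusted p under 0.05, beside 14.8% of all rows. These 17 genes did not pass in limma or in any alternative run. They included amon and 7B2, for a prohormone convertase and its helper, Phm and Pal2, for enzymes of peptide amidation, and Cadps and IA-2, for proteins of dense-core vesicles. Their median was 0.01 and their range -0.10 to 0.20. The smallest p were those of Sytalpha, a synaptotagmin gene, at 0.20 (limma adjusted p = 0.159), and nemy, a cytochrome b561 gene, at 0.19 (0.196). Of 7 measured peptidase genes 1 was lower, beside 1.24% of all rows. Nep2, a neprilysin that degrades peptides outside cells, read 6.47, 6.38 and 6.25 in the pool arrays and 6.82, 6.71 and 6.97 in the control arrays, a difference of -0.47 (limma adjusted p = 0.0268), a call that held only when the dropped array was control replicate 2 (adjusted p at most 0.0991).

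**Figure D4:**
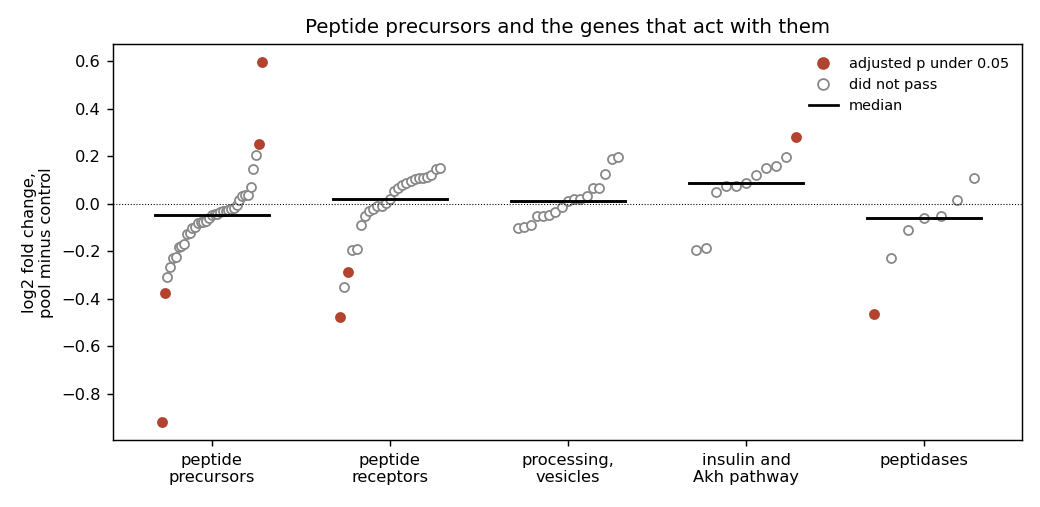
Log2 difference, pool minus control, of the 37 precursor genes beside their receptors (25 genes), processing and vesicle genes (17), the insulin and Akh pathway (11) and peptidases (7). Each point is a gene, filled where it passed the test, and the line is the median of the group; 4, 2, 0, 1 and 1 genes passed in these groups.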

How the data were processed

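RNA of 6 head samples, 3 pool and 3 control, was hybridised to GeneChip Drosophila Gene 1.0 ST arrays. The deposited log2 values were made with Affymetrix Expression Console, per the submitters' processing notes; its version, its algorithm and the build remain unstated in these sources, and the log2 scale was inferred from the range. They were used as deposited. Rows were named through the platform annotation, updated with the RefSeq gene table (Release 6 plus ISO1 MT): 13441 of 16322 rows had 1 symbol and 144 symbols were updated. The row of highest mean stood for a gene.

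Pool and control were compared with limma 3.58.1 in R 4.3.3 (lmFit, eBayes, two-sided, all rows, no filter on dim rows), with 4 residual and 3.78 prior degrees of freedom; the steps were tested on simulated data. The precursor genes and the other lists were chosen with earlier results of these data known. Values per array are given for genes that passed, for the 4 of largest difference that did not, for those of highest signal and, chosen after their values were seen, for Ilp2, Ilp5 and SIFa; CCHa2-R, NPFR and Proc-R were likewise added later. In each pathway list up to 4 genes that passed, or the 2 of smallest p, were named. Alternatives were quantile normalization, median centring, dropping the dimmest 25% of rows, rows with 1 symbol, a replicate block, each array left out, array weights, a trended robust eBayes, an ordinary per-row t statistic and averaging a gene's rows. The number of arrays limits the precision. Arrays of 1 group differed by an SD of 0.150 to 0.180, so none was a copy. Plots used matplotlib 3.10.9 (Python 3.11.15).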

Additional observations from a re-analysis of the deposited data

How the results depend on the processing

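CNMa, CCHa2 and SPR kept their direction and their call under all alternatives run, with adjusted p of up to 0.0311, 0.0419 and 0.0363. All rows that passed numbered 473 (270 higher, 203 lower), 312 with the replicate block, 861 with trend and robust settings, 196 with the ordinary t statistic and 218 to 312 with 1 array left out; centring on medians split them into 219 higher and 249 lower. Precursor genes higher numbered 2, and 1 after quantile normalization, centring or the replicate block and in each fit with 1 array left out. Precursor genes lower numbered 2, 3 after quantile normalization, centring or with rows of 1 symbol (Crz added), 5 with trend and robust settings (Crz, Mip and Proc added), 1 with the replicate block or the t statistic and 1 to 2 with 1 array left out. Receptor genes passing numbered 2, 3 without the dimmest rows, with rows of 1 symbol or with trend and robust settings (Proc-R added), 1 with the block or the t statistic and 1 to 2 with 1 array left out. Insulin and Akh pathway genes numbered 1, 0 with centring or the block, 3 with trend and robust settings and 0 in each fit with 1 array left out. Peptidase genes numbered 1, 0 with the block or the t statistic and 0 to 1 with 1 array left out. The median of the precursor genes was -0.05, and -0.0777 with centring, -0.0739 without the dimmest rows (30 of the 37 genes left) and -0.067 to -0.0389 with 1 array left out. 

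The labels do not say what the replicate numbers mark. Over all rows, deviations of same-numbered arrays correlated at -0.014, -0.005 and 0.090, which cannot settle whether arrays of 1 number were handled together. With the replicate block NPF (adjusted p = 0.0504) and Nplp3 (0.115) no longer passed. Signs turned only in genes that did not pass: with centring in Ilp7 (-0.0159) and Gpa2 (-0.00145), with array weights in Ilp7 (-0.016) and Burs (0.00174), and with 1 array left out in CCHa1 (-0.0603 to 0.0258), AstC (-0.0639 to 0.00514), Dh44 (-0.0382 to 0.0175), SIFa (-0.0177 to 0.00689), Ilp7 (-0.069 to 0.0894), Burs (-0.104 to 0.068), RYa (-0.0901 to 0.0254), Gpa2 (-0.053 to 0.12), Ptth (-0.0537 to 0.18), CCHa2-R (-0.0503 to 0.217) and NPFR (-0.0800 to 0.037). The cause of these shifts was not tested, beyond the fewer arrays or rows in those fits.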

Other observations

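Proctolin and its receptor were both lower in the pool without passing the test. Proc-R, picked after its values were seen, read 7.02, 6.92 and 6.84 in the pool arrays and 7.34, 7.14 and 7.35 in the control arrays, so that the groups did not overlap. Its difference was -0.35 (limma adjusted p = 0.0586), beside -0.17 for Proc. Over the alternatives the adjusted p of Proc-R ran from 0.0234 to 0.206.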
